A study of Mus musculus with 16 samples.

Results

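Mitochondrial ribosomal protein genes are the nuclear genes for the proteins of the ribosome inside mitochondria, and 77 of the 24346 genes in the table belonged to them. They were chosen by symbol (Mrpl or Mrps, a number and at most 1 further letter) and by a mean of at least 0.5 FPKM over the 16 libraries. FPKM are fragments per kilobase of transcript, scaled for each library by the authors in a way not stated. All 77 matching symbols met that limit, which 11802 genes met in all, so no member was lost to it. By symbol, 48 were proteins of the large subunit (Mrpl) and 29 of the small subunit (Mrps).

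The libraries were poly-A RNA-seq of differentiated C2C12 myotubes, a mouse muscle cell line that fuses into multinucleate fibres. In every group the myotubes had been kept for 24 hr with mouse serum, and the groups differed in the donor of that serum. The donors were wild-type mice (WT) or mice whose liver lacks the clock gene Bmal1, written Bmal1hep-/- in the labels and LKO here, and they were bled at zeitgeber time 4 (ZT4, day) or 16 (ZT16, night). This gave 4 groups of 4 libraries, named by donor and hour (WT ZT4 is WT serum of the day, LKO ZT16 is LKO serum of the night), which ask whether the donor's liver clock and the hour of bleeding matter to the muscle cells. No group without mouse serum was analysed here, and the labels do not state the age of the donors, the driver of the deletion or any pooling of sera. The labels call the replicates biological without naming separate cultures or donors, so p-values measure the spread between these libraries, which may be technical in part.

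The mitochondrial ribosome translates the few messenger RNAs encoded by mitochondrial DNA, all of which specify subunits of the respiratory chain and ATP synthase. All its proteins are encoded in the nucleus, made in the cytosol and imported, and they assemble on 2 mitochondrial ribosomal RNAs. The small subunit holds the decoding site, and the large subunit holds the peptidyl transferase centre and an exit tunnel that faces the inner membrane. In ribosomal nomenclature 46 of the 77 members are named after a bacterial protein, called bacterial homologues here (30 large, 16 small), and 31 are named as specific to mitochondria. In skeletal muscle, whose fibres depend on oxidative phosphorylation, the respiratory chain needs this ribosome as well as the cytosolic one. Symbols do not always give the true place: the protein of Mrps30 and that of Mrps18a sit in the large subunit, and that of Mrps36 is now known as a part of the 2-oxoglutarate dehydrogenase complex.

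Promoters of nuclear genes for mitochondrial proteins often carry the sites of ETS-family factors (among them GABP, also called NRF2), of NRF1 and of YY1. The RefSeq promoter windows (GRCm38.p6, 250 bases before to 50 after a start) matched 68 of the 77 members. The core CCGGAAG of ETS sites was found on either strand in the windows of 36.8% of these members (33.3% of large, 42.3% of small), against 20.9% of 9487 tested genes and 9.93% of all 27025 genes with a window. The NRF1 word GCGCANGCG was found for 23.5% of members (28.6% of large, 15.4% of small), against 15.8% of tested and 7.03% of all genes. The small subunit was thus near the tested genes. The YY1 word AAGATGGCG was found for 11.8% of members (9.52% of large, 15.4% of small), against 3.76% and 1.64%. The end of the ETS word is the start of the YY1 word, so a run can count under both. These shares describe letters in the windows and not binding.

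A few promoters are shown as stretches of 120 bases before the start and 30 from it, read along the gene's own strand, with the matches in capitals. The first 4 belong to members whose differences between serum groups are described further on, and the last to a pair of members that share it. Mrpl33 (chr5:31613831-31613980, plus strand) has 1 ETS match that spans its start, Mrpl52 (chr14:54426789-54426938, plus) has 2 ETS matches, Mrps21 (chr3:95871485-95871634, minus) has 1 NRF1 and 1 ETS match, and Mrpl30 (chr1:37890357-37890506, plus) has 2 NRF1 matches. Mrps11 (chr7:78783011-78783160, plus) has 1 YY1 match, and the start of Mrpl46 on the other strand lies 42 bases before that of Mrps11, so the stretch holds both starts of a large and a small subunit gene.
Mrpl33: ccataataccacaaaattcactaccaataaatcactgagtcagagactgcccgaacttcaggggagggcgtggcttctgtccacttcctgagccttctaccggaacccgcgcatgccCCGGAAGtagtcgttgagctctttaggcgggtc
Mrpl52: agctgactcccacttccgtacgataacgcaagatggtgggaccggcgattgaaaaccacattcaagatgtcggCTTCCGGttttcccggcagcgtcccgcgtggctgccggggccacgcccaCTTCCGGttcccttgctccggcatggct
Mrps21: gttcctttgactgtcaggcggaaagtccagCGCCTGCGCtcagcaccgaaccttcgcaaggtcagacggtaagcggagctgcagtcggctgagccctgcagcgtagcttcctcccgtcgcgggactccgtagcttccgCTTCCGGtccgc
Mrpl30: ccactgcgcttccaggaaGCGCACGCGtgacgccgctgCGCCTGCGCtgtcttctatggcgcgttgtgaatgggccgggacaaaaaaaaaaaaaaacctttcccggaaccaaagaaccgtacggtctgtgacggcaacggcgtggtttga
Mrps11: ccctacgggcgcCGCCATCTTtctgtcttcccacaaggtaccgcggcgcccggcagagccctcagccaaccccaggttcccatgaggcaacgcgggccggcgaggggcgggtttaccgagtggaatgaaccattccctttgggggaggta

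The cells carried myotube markers, as labelled, and markers of cycling cells as well. Of 15 myotube markers 14 were in the table, all at or above 0.5 FPKM, and their summed FPKM was 3346 to 4938 per library. The 6 markers of myoblasts or cycling cells were all present too, at a summed 281 to 344 FPKM with overlapping ranges in all groups. Group means ran from 94.9 to 108 FPKM for Top2a and from 3.06 to 3.62 FPKM for Pax7. None of the 4 blood cell and 3 hepatocyte markers in the table had a mean of 0.5 FPKM over the 16 libraries. Hba-a1 came nearest, with group means of 0.511, 0.516, 0.693 and 0.262 FPKM (WT ZT4, WT ZT16, LKO ZT4, LKO ZT16) and at most 1.08 FPKM in a library, while Hbb-bs, Ptprc and Ttr were listed at 0 in every library. Relative depth could be read from the steps between low FPKM values, and the shallowest library had 65.7% of the depth of the deepest.

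One property of the libraries bears on short genes, which many members are. For each library, with genes centred over the 16 libraries, the mean log2(FPKM+1) of tested transcripts under 500 nt less that of transcripts over 2000 nt gave a short-minus-long value. Under WT serum it was -0.08 ± 0.05 at ZT4 and 0.10 ± 0.08 at ZT16 (mean ± SD, n = 4 here and in each group mean that follows), with no overlap between these groups. In LKO ZT16 it was -0.06 ± 0.08. In LKO ZT4 it was -0.11, 0.17, -0.19 and 0.32 in replicates 1 to 4, so this group held both the lowest and the highest libraries of the series.

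The members were expressed well above the median gene and over a wide range. As the libraries are of bulk RNA, fewer cells of a type and less RNA per cell cannot be told apart in any level or difference. The median of their mean levels was 49.5 FPKM, against 12.7 FPKM for all tested genes, and it was 45.6 FPKM for the large and 51.6 FPKM for the small subunit. Mean levels ran from 6.28 FPKM for Mrpl35 to 597 FPKM for Mrpl52, a 95.2-fold range, although the ribosome holds most of these proteins in single copy. Above 100 FPKM lay 15 members (12 large, 3 small), and under 20 FPKM lay 11.

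**Figure D1:**
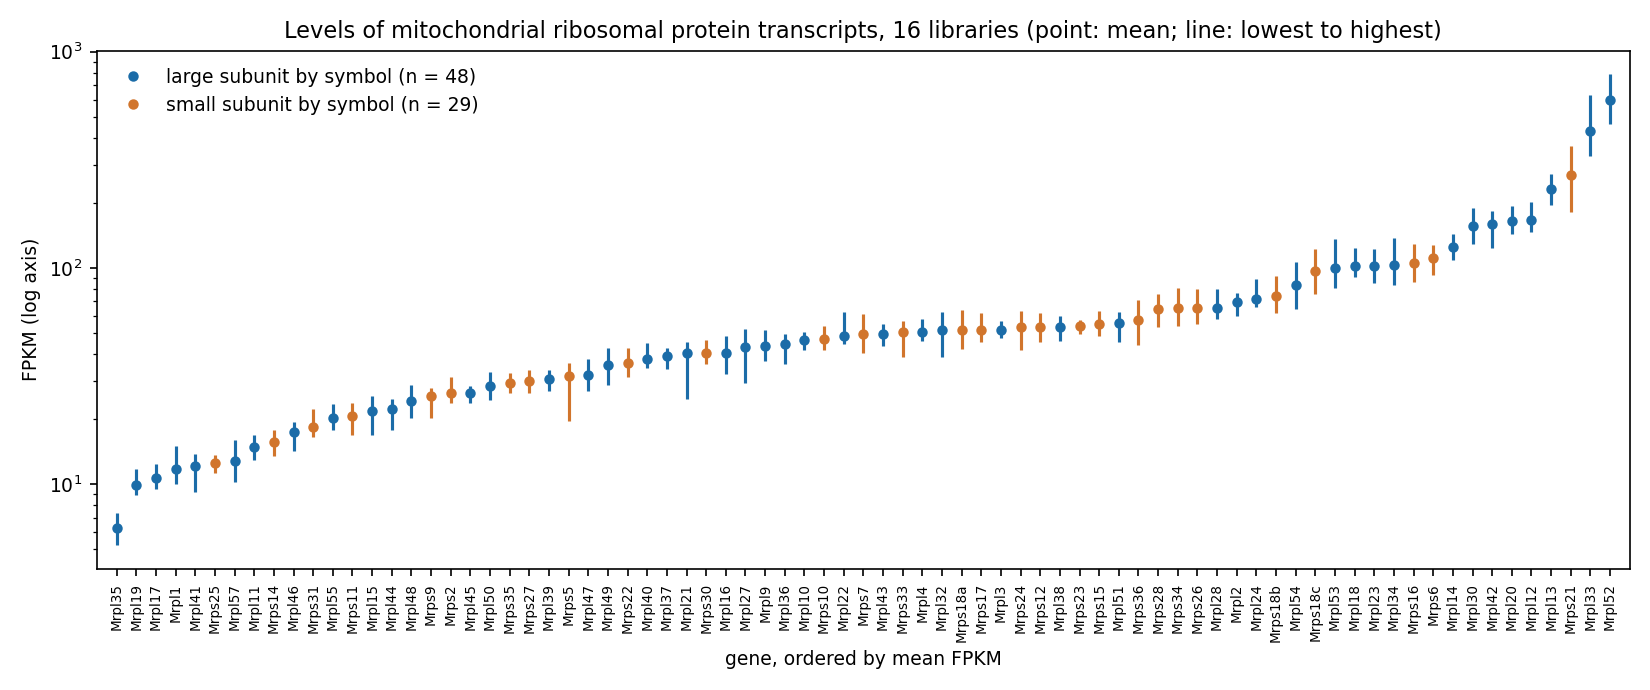
FPKM of the 77 members on a log axis, each ordered by its mean over the 16 libraries (point), with a line from the lowest to the highest library. Large and small subunit genes are intermixed, from Mrpl35 at 6.28 FPKM to Mrpl52 at 597 FPKM, and most lines are short beside the differences between genes.

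The top of the range was rich in short transcripts. In the large subunit it held Mrpl52 (597 FPKM, 464 to 786 over libraries), a protein specific to mitochondria, Mrpl33 (430 FPKM, 329 to 632), which has a bacterial homologue, and Mrpl13 (233 FPKM, 196 to 273), which has one too. The ranges of Mrpl52 and Mrpl33 overlapped, yet Mrpl52 was the higher in each of the 16 libraries. In the small subunit it held Mrps21 (270 FPKM), Mrps6 (111 FPKM) and Mrps16 (105 FPKM), all with bacterial homologues, of which the last 2 had overlapping ranges. Of the 15 members over 100 FPKM, 10 had a median annotated transcript under 700 nt, against 3 of the 51 between 20 and 100 FPKM and 0 of the 11 under 20 FPKM. The lowest large subunit genes were Mrpl35 (6.28 FPKM), Mrpl19 (9.93 FPKM) and Mrpl17 (10.6 FPKM), and the lowest small subunit genes were Mrps25 (12.5 FPKM), Mrps14 (15.7 FPKM) and Mrps31 (18.5 FPKM). How the authors' program handles transcripts near fragment length is not known here, so the height of the shortest genes depends on it.

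Reads of some members could be shared with other genes. Exons of 32 members overlapped those of another annotated gene, 27 of them on the other strand and 8 on the same strand, and 3 (Mrpl23, Mrpl48 and Mrps36) have named pseudogenes. Whether counting used strand is not given, so their levels are uncertain. Mrpl33 overlaps the predicted gene Gm43809 on its own strand, and Mrps11 and Mrpl46 overlap each other.

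All 77 members together showed small differences between serum groups, and the 2 subunits moved side by side. A library score, the mean over members of log2(FPKM+1) centred on each gene's mean over all libraries, averaged -0.01 ± 0.05 for WT ZT4, 0.05 ± 0.06 for WT ZT16, 0.02 ± 0.11 for LKO ZT4 and -0.06 ± 0.03 for LKO ZT16. Per replicate the score was -0.01, 0.06, -0.01 and -0.07 in WT ZT4, and 0.13, -0.01, 0.01 and 0.05 in WT ZT16. The LKO ZT4 libraries had -0.00, 0.09, -0.12 and 0.13, and those of LKO ZT16 had -0.10, -0.04, -0.04 and -0.07. All 4 libraries of LKO ZT16 lay below all 4 of WT ZT16, the LKO ZT4 libraries spanned nearly the whole range, and that separation depended on scaling. With the libraries scaled to the same summed FPKM the group means were 0.03 ± 0.03, -0.004 ± 0.04, -0.02 ± 0.04 and -0.004 ± 0.007 in the same order, WT ZT16 and LKO ZT16 overlapped, and the spread within LKO ZT4 was smaller. On the values as deposited, 67, 35, 42 and 60 of the 77 members were above their own mean in WT ZT16 replicates 1 to 4, and 11, 29, 20 and 17 in those of LKO ZT16.

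Large and small subunit genes stayed close to each other in every library. The large score less the small score ran from -0.05 in LKO ZT4 replicate 1 to 0.03 in WT ZT4 replicate 4, and its SD within groups was 0.02, against 0.07 for the score of all members. Its group means, in the order above, were -0.001 ± 0.02, 0.006 ± 0.003, -0.007 ± 0.03 and 0.002 ± 0.01, which differ by less than that SD of 0.02. The summed FPKM of large subunit genes was 2.10 to 2.41 times that of small subunit genes, and both ends of that range were in LKO ZT4. These sums rest on the abundant short genes, Mrpl52 and Mrpl33 first. Without Mrpl33 and Mrpl52 the score of all members was -0.00 ± 0.05, 0.04 ± 0.07, 0.02 ± 0.11 and -0.06 ± 0.03 in the 4 groups in the same order.

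**Figure D2:**
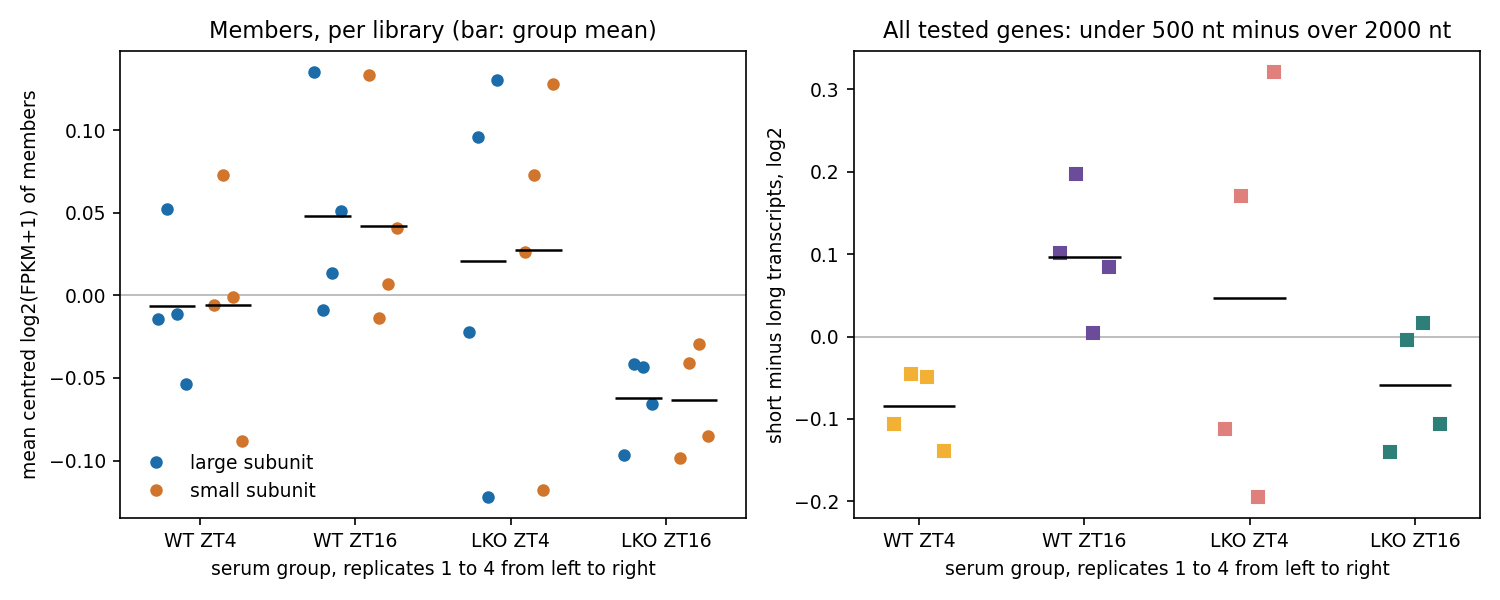
Left, the mean centred log2(FPKM+1) of the 48 large and 29 small subunit genes in each library. Right, the short-minus-long value of all tested genes in the same libraries. Points are replicates 1 to 4 and bars are group means. Large and small points move together from library to library, LKO ZT16 lies below WT ZT16 on the left, and LKO ZT4 is the widest group in both plots. With libraries scaled to the same summed FPKM, WT ZT16 and LKO ZT16 both average -0.004.

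Differences were tested gene by gene with limma over all 11802 genes, with 5 comparisons and Benjamini-Hochberg adjustment over all genes. The 5th comparison is the interaction, the ZT16 minus ZT4 difference under LKO serum less that under WT serum. No member passed an adjusted p of 0.05 in any comparison. The comparisons share groups, so their values for a member are not independent of each other.

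Under WT serum, ZT16 minus ZT4, the members lay slightly above the other genes. Their median difference was 0.04 log2 with 52 of 77 above 0 (-0.04 with libraries scaled to the same summed FPKM), while the median of all tested genes was 0.0007. The large and the small subunit had medians of 0.03 and 0.05. No gene of the table passed (0.0% of tested genes), and 5 members had an unadjusted p under 0.05, all higher at ZT16, which is 6.49% of members against 3.97% of all genes. The 2 groups did not overlap for 9 members (11.7%), all higher at ZT16, against 4.34% of all genes. Without WT ZT16 replicate 1 the median of the members was 0.009 log2, so that library carries most of it.

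Under LKO serum, ZT16 minus ZT4, the members lay below the other genes. Their median difference was -0.08 log2 with 64 of 77 below 0 (0.03 with the same summed FPKM), against 0.006 for all genes, and the subunit medians were -0.06 (large) and -0.10 (small). At an adjusted p of 0.05, 0.0169% of genes passed (2 genes). An unadjusted p under 0.05 was found for 13 members, all lower at ZT16, 16.9% against 11.9% of all genes. Groups did not overlap for 5 members (6.49%, all lower), against 5.0% of all genes, which is near the background. The median was -0.05 without LKO ZT4 replicate 2 and -0.14 without replicate 3 of that group. Scaled to the same summed FPKM, 4 members and 2316 of 11802 genes had an unadjusted p under 0.05.

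Between LKO and WT serum at ZT4 the members differed little from the other genes. The median was 0.03 log2 with 44 of 77 above 0 (-0.04 with the same summed FPKM), against -0.008 for all genes, and the subunit medians were 0.02 (large) and 0.05 (small). Only 1 gene passed (0.00847%). Unadjusted p under 0.05 was found for 4 members (5.19%, all higher under LKO serum) against 10.3% of all genes, and the groups did not overlap for 4 (5.19%) against 3.95%. Without WT ZT4 replicate 4 the members' median was 0.0007 and without LKO ZT4 replicate 3 it was 0.07.

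Between LKO and WT serum at ZT16 the members lay below the other genes. The median was -0.09 log2 with 69 of 77 below 0 (0.02 with the same summed FPKM), against 0.005 for all genes, and the subunit medians were -0.09 (large) and -0.10 (small). At the adjusted threshold 6 genes passed (0.0508%). An unadjusted p under 0.05 was found for 13 members, all lower under LKO serum, 16.9% against 12.8% of all genes. The groups did not overlap for 15 members (19.5%), all lower under LKO serum, against 11.9% of all genes. Leaving out any 1 library kept the members' median between -0.12 and -0.07, but the count at an unadjusted p under 0.05 moved. It was 4 members without WT ZT16 replicate 1 (1118 of 11802 genes) and 7 without LKO ZT16 replicate 1 (1003 genes). Without WT ZT16 replicate 2 it was 19 (1454 genes), and with the same summed FPKM it was 5 (2445 genes).

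The interaction of the members had a median of -0.13 log2, with 62 of 77 below 0 (0.06 with the same summed FPKM), against 0.009 for all genes. As deposited it was -0.12 for the large and -0.13 for the small subunit. Members with a bacterial homologue and those specific to mitochondria had medians of -0.13 and -0.10. At the adjusted threshold 11 genes passed (0.0932%), and 16 members had an unadjusted p under 0.05, all negative, 20.8% against 10.3% of all genes. The smallest adjusted p of a member was 0.0552, for Mrpl33. Scaled to the same summed FPKM, 10 of 77 members and 2950 of 11802 genes had an unadjusted p under 0.05. The share of members was then below that of all genes.

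**Figure D3:**
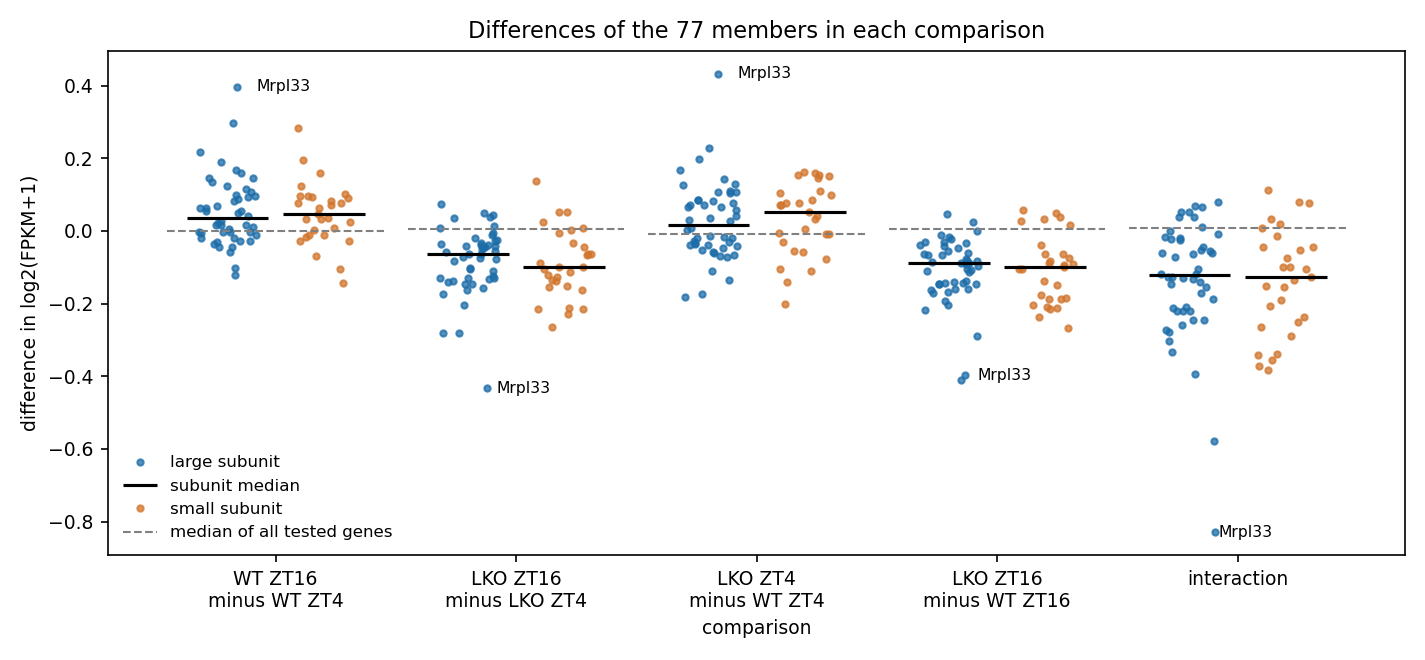
Fitted difference in log2(FPKM+1) of each of the 77 members in the 5 comparisons, with the median of each subunit (bar) and of all tested genes (dashed line). The medians of both subunits sit above the dashed line in the 1st and 3rd comparisons and below it in the others. In the 3rd, 31 of the 77 members lie below it. Mrpl33 is at or next to the end of every column. The median of all 77 members turns sign against 0 when libraries are scaled to the same summed FPKM. Its side of the dashed line can hardly change, as scaling shifts all genes of a library alike.

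The direction against 0 depended on which scaling was used. It turned in all 5 comparisons with the same summed FPKM, but not with scaling by median ratios. With median ratios the members' medians were 0.04, -0.08, 0.03, -0.10 and -0.13 log2, in the order given above. Scaling applies 1 factor to all genes of a library, so it can hardly change the members' median relative to that of other genes. With the libraries scaled to the same summed FPKM the median of all genes became -0.07, 0.10, -0.07, 0.10 and 0.17 log2 in the 5 comparisons, in the order given above. The members' median less that of all genes was 0.04, -0.08, 0.04, -0.10 and -0.13 log2 without that scaling, and 0.03, -0.07, 0.03, -0.09 and -0.12 with it. The share at an unadjusted p under 0.05 did change. With that scaling 7, 4, 10, 5 and 10 of the 77 members had such a p. Of the 11802 genes 901, 2316, 1691, 2445 and 2950 had one, so the members' share was the higher only in the 1st comparison. The offset kept its sign in every alternative run, in all 5 comparisons, but many of these runs could not change it. Both replicate blocks repeat the main value, as does any run that only drops libraries from groups outside a comparison. A kept sign in such a run is therefore no check. Among runs that could change it, the offset was as small as 0.008 log2 under WT serum without WT ZT16 replicate 1. Between donors at ZT4 it was as small as 0.006 log2, without WT ZT4 replicate 4.

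Short members stood further apart than long ones. The median transcript of the members was 1223 nt, against 2653 nt for tested genes. The 13 members under 700 nt were all higher at ZT16 under WT serum (median 0.16 log2) and all lower at ZT16 under LKO serum (-0.16), and the 413 tested genes of that length had medians of 0.12 and -0.14. In the interaction the 13 had a median of -0.33 against -0.27 for genes of that length, and the 17 members between 700 and 1000 nt had -0.10 against -0.15. The 47 members of 1000 nt and over had -0.07 (33 of 47 below 0) against 0.02 for the 10641 genes of that length. For LKO against WT serum at ZT16 these 47 had a median of -0.09, with 41 below 0, against 0.01. With a smooth trend with length taken out of each library the offset from all genes was 0.02, -0.02, 0.009, -0.06 and -0.04 log2, smaller in each comparison and of the same sign. How much smaller depended on the transcript set. With lengths over the comprehensive set, chosen after seeing the data, it was 0.02, -0.06, 0.02, -0.08 and -0.10 log2.

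**Figure D4:**
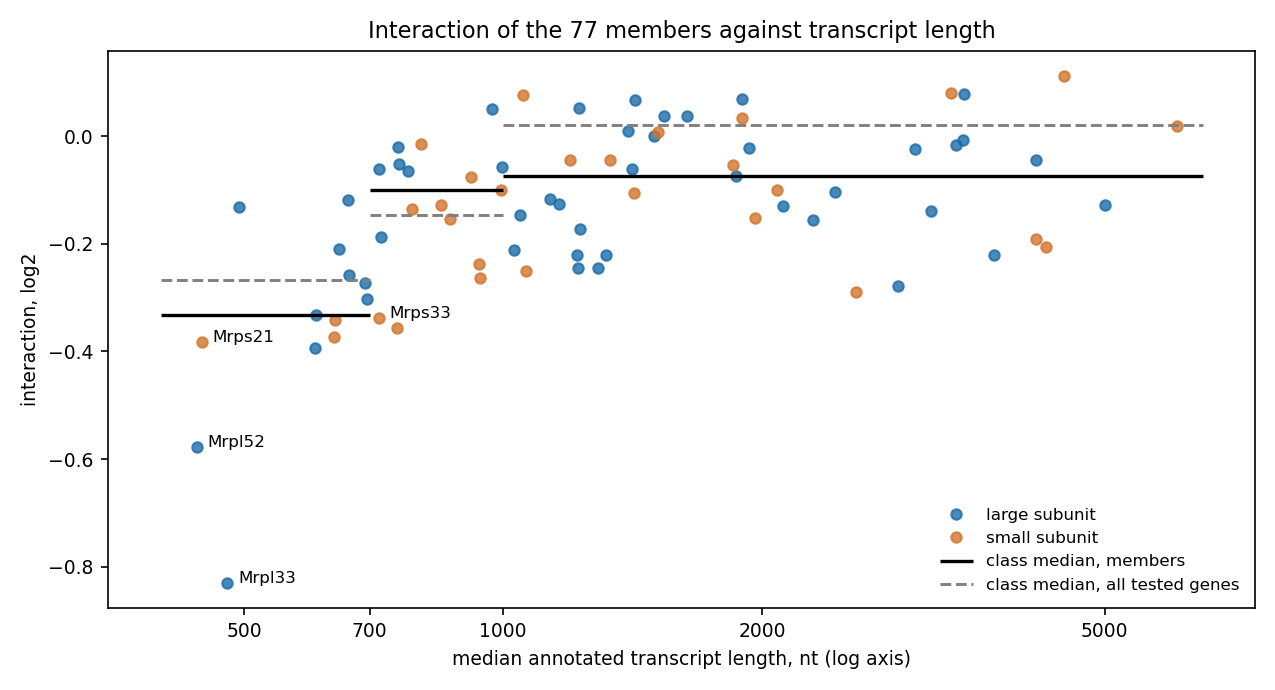
Interaction in log2(FPKM+1) of the 77 members against median annotated transcript length (log axis), with medians of members (solid) and of all tested genes (dashed) in 3 length classes. The short genes lie lowest, and in the shortest class the medians of members and of all genes are -0.33 and -0.27. In the longest class they are -0.07 and 0.02.

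Mrpl33, a small protein of the large subunit with a bacterial homologue, had the largest difference of the set in 4 of the 5 comparisons, and at ZT16 that of Mrpl52 was slightly larger. Under WT serum, replicates 1 to 4 had 380, 365, 342 and 377 FPKM at ZT4 and 461, 516, 457 and 496 FPKM at ZT16. Under LKO serum they had 380, 505, 491 and 632 FPKM at ZT4 and 329, 329, 412 and 402 FPKM at ZT16. The WT groups did not overlap, with ZT16 the higher, and under LKO serum the order was the opposite, with replicate 1 of LKO ZT4 within the range of LKO ZT16. The ZT16 minus ZT4 difference was 0.40 ± 0.12 log2 (estimate ± SE) under WT serum and -0.43 ± 0.12 under LKO serum, with adjusted p of 0.906 and 0.223 by limma. Each passed in 1 of 27 alternatives. Under WT serum that was the model of only the WT groups, with an SE of 0.06 and an adjusted p of 0.0272 by limma. Under LKO serum it was without LKO ZT4 replicate 1 (adjusted p of 0.0195). LKO minus WT serum was 0.43 ± 0.12 at ZT4 and -0.40 ± 0.12 at ZT16, and neither passed (adjusted p of 0.238 and 0.228). The interaction of Mrpl33 was -0.83 ± 0.16 log2 with an adjusted p of 0.0552. That p was 0.00173 without LKO ZT4 replicate 1, 0.00811 with libraries weighted by their noise and 0.048 over genes of at least 2 FPKM, and from 0.00173 to 0.158 over all alternatives. Its median transcript is 478 nt, and with the length trend removed the interaction was -0.671.

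Mrpl52, a large subunit protein specific to mitochondria, followed a like course at a higher level. Under WT serum it had 565, 597, 517 and 546 FPKM at ZT4 and 731, 683, 657 and 662 FPKM at ZT16. Under LKO serum it had 464, 683, 609 and 786 FPKM at ZT4 and 489, 487, 564 and 519 FPKM at ZT16. LKO ZT16 lay wholly below WT ZT16, and WT ZT4 wholly below WT ZT16, while LKO ZT4 ran across all the others. Its interaction was -0.58 ± 0.16 log2 (adjusted p = 0.188 by limma), and LKO minus WT serum at ZT16 was -0.41 ± 0.11 (adjusted p = 0.223). Without LKO ZT4 replicate 1 these had adjusted p of 0.00471 and 0.0377, and over all alternatives the p ran from 0.00471 to 0.345 and from 0.0214 to 0.478.

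Mrps33, a small subunit protein specific to mitochondria, had the smallest p of the small subunit in 3 of the 5 comparisons, between ZT4 and ZT16 under LKO serum, between donors at ZT16 and in the interaction. Its median transcript is 717 nt. Under WT serum it had 51.8, 51.4, 49.0 and 47.0 FPKM at ZT4 and 56.8, 49.9, 54.3 and 56.5 FPKM at ZT16. Under LKO serum it had 51.0, 53.5, 48.8 and 56.5 FPKM at ZT4 and 39.0, 45.3, 47.5 and 48.7 FPKM at ZT16. Every LKO ZT16 library lay below every library of WT ZT16 and of LKO ZT4. The difference between LKO and WT serum at ZT16 was -0.27 ± 0.07 log2 and the interaction -0.34 ± 0.10, with adjusted p of 0.223 and 0.203 by limma. With library weights the former passed, at 0.0407, and over all alternatives its adjusted p ran up to 0.478. The interaction was -0.155 with the same summed FPKM.

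**Figure D5:**
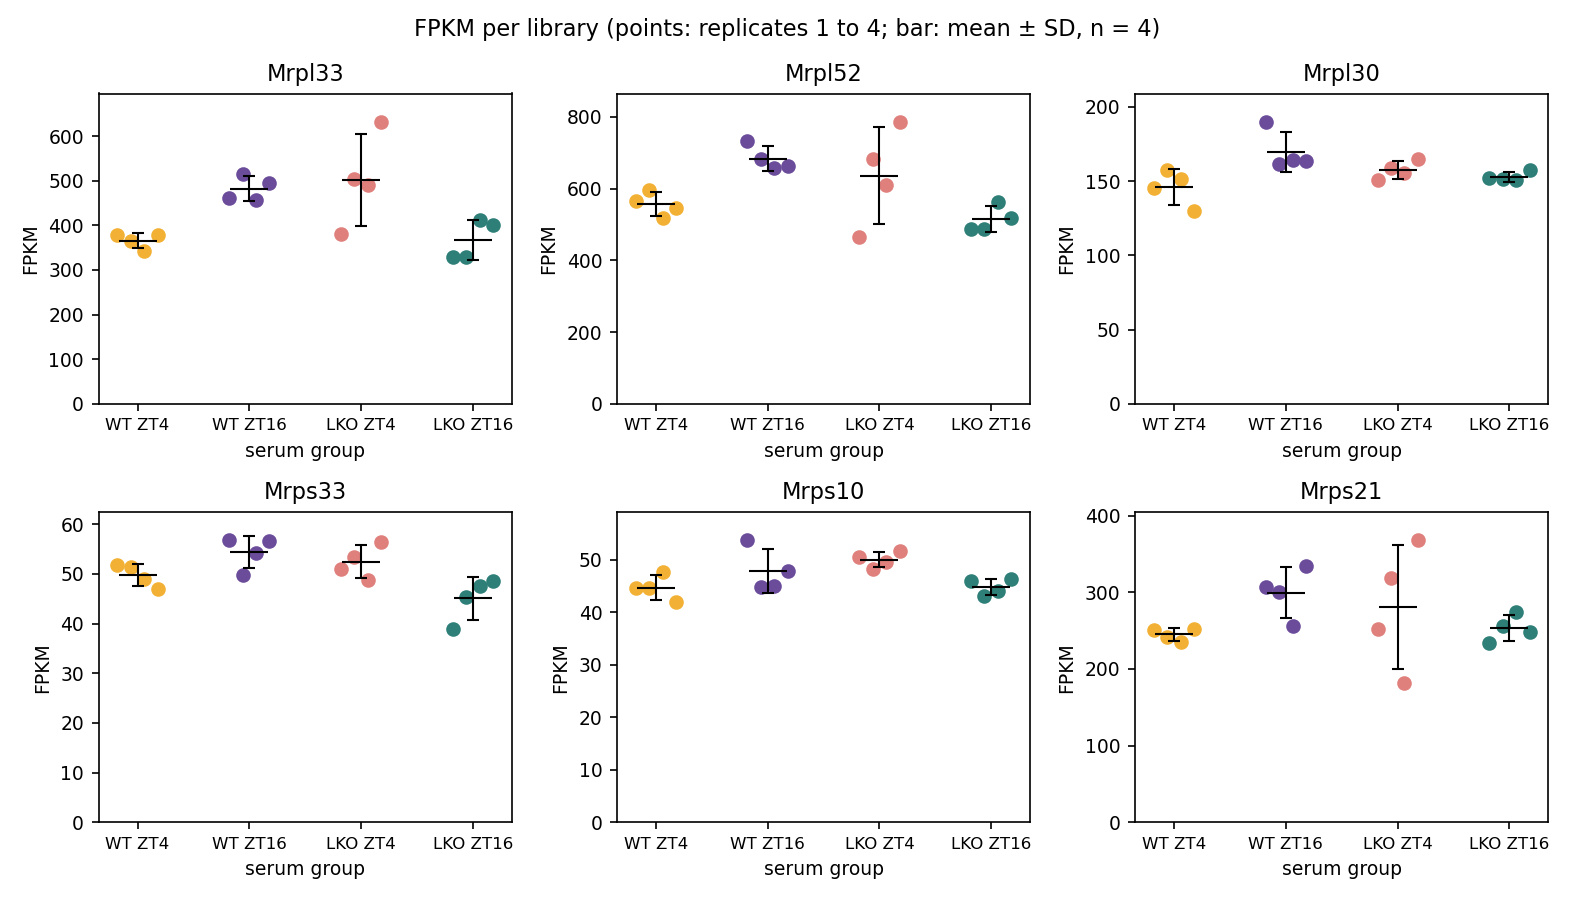
FPKM of Mrpl33, Mrpl52, Mrpl30, Mrps33, Mrps10 and Mrps21 in each library (points, replicates 1 to 4 from left to right) with mean ± SD of each serum group (n = 4). Mrpl33 shows the opposite order of ZT4 and ZT16 under WT and LKO serum (366 and 482 FPKM, 502 and 368 FPKM), and LKO ZT4 has a wide spread in Mrpl33, Mrpl52 and Mrps21 but not in Mrps10.

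Mrpl30 and Mrps10 both have bacterial homologues and smaller differences. Mrpl30 had 145, 157, 151 and 130 FPKM in WT ZT4, and 190, 161, 164 and 164 FPKM in WT ZT16, which did not overlap. Its difference between them was 0.22 ± 0.06 log2 (adjusted p = 0.906 by limma), and under LKO serum it was -0.04 ± 0.06. LKO minus WT serum at ZT16 was -0.15 ± 0.06 log2, without overlap, and the interaction -0.26 ± 0.09 (adjusted p of 0.362 and 0.329). Mrps10 had 44.6, 44.6, 47.7 and 42.0 FPKM in WT ZT4, and 50.5, 48.3, 49.7 and 51.8 FPKM in LKO ZT4. These did not overlap either, with a difference of 0.16 ± 0.06 log2 (adjusted p = 0.375). From ZT4 to ZT16 under LKO serum it differed by -0.16 ± 0.06 log2, also without overlap, and its interaction was -0.25 ± 0.08 (adjusted p of 0.335 and 0.296). The interaction of Mrps10 was -0.067 ± 0.090 with the same summed FPKM and -0.116 ± 0.086 with the length trend removed. The range of Mrps10 in LKO ZT4 was narrow, unlike that of Mrpl33 or Mrpl52, although its libraries were the same.

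Mrps21, the most abundant small subunit transcript and one of the shortest (446.5 nt), had 251, 242, 235 and 253 FPKM in WT ZT4, and 307, 301, 256 and 335 FPKM in WT ZT16. Under LKO serum it had 253, 319, 182 and 368 FPKM at ZT4, and 234, 257, 274 and 248 FPKM at ZT16. Within LKO ZT4 its order over the replicates was that of the short-minus-long value from its lowest to its highest library. The part of that value in these levels was not tested. The interaction was -0.38 ± 0.21 log2 (adjusted p = 0.558 by limma).

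The stalk, which recruits translation factors to the large subunit, comprises the products of Mrpl10, Mrpl11, Mrpl12 and Mrpl53. Mrpl12 had 169 ± 11.8 and 177 ± 16.9 FPKM at ZT4 and ZT16 under WT serum, and 170 ± 20.2 and 152 ± 5.84 FPKM under LKO serum. Its LKO ZT16 libraries all lay below those of WT ZT16 (-0.22 ± 0.08 log2, adjusted p = 0.312 by limma). Mrpl53 had 111 ± 19.2 FPKM at ZT4 and 90.4 ± 6.91 FPKM at ZT16 under LKO serum (-0.28 ± 0.10 log2, adjusted p = 0.29). Mrpl10 and Mrpl11 had interactions of 0.05 and -0.02 log2, with group means of 45.7 to 48.0 FPKM and 14.2 to 15.4 FPKM.

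Around the tunnel exit, where nascent chains leave towards the inner membrane, sit the products of Mrpl22, Mrpl23, Mrpl24, Mrpl45 and Mrpl47, of which that of Mrpl45 touches the membrane. Mrpl24 had 66.3, 69.5, 67.3 and 69.2 FPKM in WT ZT4, and 76.1, 71.6, 76.8 and 89.2 FPKM in LKO ZT4. These ranges did not overlap (0.20 ± 0.06 log2, adjusted p = 0.308 by limma). Mrpl23 differed in the same comparison by 0.23 ± 0.09 log2 (adjusted p = 0.413). Mrpl45 and Mrpl47 had differences between -0.05 and 0.08 log2 in the 4 comparisons of group pairs.

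Near the peptidyl transferase centre and the core of the large subunit, Mrpl2, Mrpl3 and Mrpl4 had interactions of -0.06, -0.14 and -0.24 log2. That of Mrpl4 was -0.061 with the same summed FPKM. Under LKO serum Mrpl4 was at 50.3 to 58.3 FPKM at ZT4 and 46.7 to 49.6 FPKM at ZT16, without overlap (-0.15 ± 0.06 log2, adjusted p = 0.352 by limma). Mrpl44, whose protein has a ribonuclease III fold, and Mrpl41 had interactions of 0.07 and -0.06 log2. Mrpl50, a protein specific to mitochondria, had -0.17 ± 0.06 log2 from ZT4 to ZT16 under LKO serum (adjusted p = 0.318).

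In the small subunit, Mrps12 at the decoding site had group means of 50.6 to 56.7 FPKM and an interaction of -0.01 log2. The other conserved proteins Mrps5, Mrps7, Mrps14, Mrps15 and Mrps16 had interactions of 0.11, -0.15, 0.03, -0.24 and -0.29 log2. Mrps7 at ZT16 was 61.3, 50.3, 50.4 and 50.1 FPKM under WT serum and 43.6, 47.8, 48.2 and 42.8 FPKM under LKO serum, without overlap (-0.21 ± 0.08 log2, adjusted p = 0.337 by limma). Mrps22, Mrps34 and Mrps35, specific to mitochondria, had interactions of -0.04, -0.08 and -0.19 log2. Mrps17 and Mrps27 were among the 3 small subunit members of smallest p in a comparison, with differences of -0.15 ± 0.07 log2 (LKO minus WT serum at ZT16) and 0.11 ± 0.06 (at ZT4), neither past the threshold.

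The 3 paralogues Mrps18a, Mrps18b and Mrps18c belong to the family of a single bacterial protein. Only Mrps18c keeps its name in ribosomal nomenclature, so the other 2 are counted above as specific to mitochondria, and the product of Mrps18a sits in the large subunit. They had interactions of -0.36 ± 0.14, -0.26 and -0.34 ± 0.15 log2, so the large subunit paralogue was close to the others. Mrps30, also of the large subunit, had an interaction of 0.08 log2. Counted by place, with Mrps36 left out, large less small medians were -0.006, 0.04, -0.03, 0.007 and -0.006 log2 in the 5 comparisons, and by symbol -0.01, 0.04, -0.04, 0.01 and 0.006. These are descriptions with no test. Mrps36 itself had 54.4 ± 2.83, 60.9 ± 5.60, 61.1 ± 6.71 and 52.7 ± 7.85 FPKM in the 4 groups and an interaction of -0.37 ± 0.14 log2 (adjusted p = 0.354 by limma). Its interaction was -0.189 with the same summed FPKM.

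The pair that shares a promoter stretch had differences of opposite sign in some comparisons. Mrps11 had 22.5 ± 1.70 and 20.2 ± 0.855 FPKM at ZT4 and ZT16 under WT serum, and 20.4 ± 2.45 and 19.3 ± 0.636 FPKM under LKO serum. Mrpl46, described here because of its neighbour and after its values were seen, differed by 0.12 ± 0.09 log2 from ZT4 to ZT16 under WT serum, where Mrps11 differed by -0.14 ± 0.08. Neither passed (adjusted p = 0.999 for both by limma), and their exons overlap.

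Other genes of mitochondrial translation were counted in the same fit. The 6 ribosomal proteins with other names (Dap3, Ptcd3, Chchd1, Aurkaip1, Gadd45gip1 and Ict1) had an interaction median of -0.19 log2, 5 of 6 below 0 (-0.005 with the same summed FPKM), and none passed, with 3 of 6 at an unadjusted p under 0.05 by limma in the interaction, against 10.3% of all genes. Chchd1, a small subunit protein, had the smallest p of them in the interaction, with 113 ± 6.15, 130 ± 6.22, 124 ± 17.3 and 107 ± 5.81 FPKM in the 4 groups (interaction -0.41 ± 0.11 log2, adjusted p = 0.177 by limma). Of 16 translation factors and partners 15 were tested, and their interaction median was -0.01. Only Slirp passed, which with Lrpprc binds and stabilises mitochondrial messenger RNAs. Slirp had 200 ± 17.5 and 288 ± 16.7 FPKM at ZT4 and ZT16 under WT serum, and 267 ± 61.1 and 173 ± 21.6 FPKM under LKO serum. It was lower under LKO than WT serum at ZT16 (-0.74 ± 0.13 log2, adjusted p = 0.0425 by limma), and its interaction was -1.13 ± 0.18 log2 (adjusted p = 0.0144). The call at ZT16 was lost in 17 of 28 alternatives, 12 of the 16 that leave out a library among them (each library of the WT groups and of LKO ZT16), with adjusted p from 0.00246 to 0.222 over all. That of the interaction was lost in 3 of 27, without LKO ZT16 replicate 1 (adjusted p = 0.0528), with no filter (0.0575) and among transcripts of at least 1000 nt (0.0509).

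The 30 genes for assembly of the ribosome and modification of its RNA had medians of 0.02, -0.07, 0.03, -0.07 and -0.10 log2 in the 5 comparisons, with 23 of 30 below 0 in the interaction. The 17 mitochondrial aminoacyl-tRNA synthetases, which charge the transfer RNAs, had -0.02, -0.02, -0.06, -0.04 and -0.009 log2. No gene of either list passed in any comparison by limma, and per comparison 1 to 5 of the 30 and 0 to 2 of the 17 had an unadjusted p under 0.05, where 3.97 to 12.8% of all genes had one. With the same summed FPKM the assembly genes had an interaction median of 0.07 and the synthetases 0.17 log2, against 0.17 for all tested genes, so the assembly genes lay below the other genes and the synthetases near them.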

How the data were processed

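Poly-A RNA-seq libraries of C2C12 myotubes were used as the authors' deposited table of FPKM values, 1 column per library and 24346 rows. Per the submitters' processing notes, STAR (no version) and FastQC 0.11.8 were used, and builds mm10 and GRCm39 are named without a role. The program and annotation that made the FPKM values: not given in the sources used here. Columns were tied to samples by library name, since replicate numbers in column names differed from those in titles for 7 of 16 libraries. A spreadsheet had made dates of 27 symbols, and 7122 rows were 0 throughout. FPKM without counts leaves a gene's depth unknown.

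Genes with a mean of at least 0.5 FPKM (11802) were tested on log2(FPKM+1), a scale that understates folds of low genes. One limma 3.58.1 model (R 4.3.3, lmFit, eBayes with trend) held all 16 libraries in 4 groups. Calls needed a Benjamini-Hochberg adjusted p under 0.05. The code was tested on simulated data. Lengths are medians over basic GENCODE M21 transcripts of GRCm38, used by symbol only, and were found for 99.5% of tested genes. Promoters are from RefSeq (GRCm38.p6). Figures used Python 3.11.15 and matplotlib 3.10.9.

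The members and lists were chosen with earlier results of these data known. Members named were the 3 of each subunit with the smallest p per comparison, the 3 highest and 3 lowest, and a set of known roles. From each other list the 3 with the smallest p per comparison could be named. Alternatives were a pseudocount of 0.1, no filter or at least 2 FPKM, scaling by summed FPKM or by median ratios, weights per library, only the groups compared, a replicate block, a length trend removed (spline, 5 degrees of freedom), transcripts of at least 1000 nt and each library left out. Chosen after seeing the data were a block by column numbers and lengths over the comprehensive transcript set. Protein sequences were not used here.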

Additional observations from a re-analysis of the deposited data

Results flagged for a closer look

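In 92 groups of 4 values (19 members and 4 summary measures in the 4 serum groups), 8 held a library whose gap to the nearest other was too large a part of the group's range by Dixon's 95% critical value. Chance flags about 1 in 20 groups. WT ZT16 replicate 1 was the high library in 4 of the 8, with 202 FPKM for Mrpl12, 190.0 FPKM for Mrpl30, 69.3 FPKM for Mrps36 and 61.3 FPKM for Mrps7. Mrps17 had a high library both in WT ZT4, at 56.0 FPKM in replicate 2, and in LKO ZT4, at 61.8 FPKM in replicate 4. Mrps36 was high in LKO ZT4 replicate 2, at 71.1 FPKM. Mrps18a was low in LKO ZT4 replicate 3, at 42.2 FPKM. No explanation was tested.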

How the results depend on the processing

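None of the 30 differences of members named for their p turned sign in 815 values over the alternatives. They were chosen for a small p in these same data, and some alternatives repeat the main estimate, so kept signs say little. Sizes changed: the interactions of Mrps10 and Mrpl4 were -0.2506 and -0.2445, and -0.0672 and -0.0608 with the same summed FPKM. In 13 of the 815 values, of Mrpl33, Mrpl52 or Mrps33, the difference passed the threshold that it had missed. Scaling to the same summed FPKM turned the members' medians to -0.0428 (WT, ZT16 minus ZT4), 0.0255 (LKO, ZT16 minus ZT4), -0.0400 (LKO minus WT at ZT4), 0.0161 (at ZT16) and 0.0581 (interaction) log2, as the report describes. It gave 1, 0, 0 and 17 called genes in the 1st, 2nd, 3rd and 5th of these. Removing the length trend moved the interaction median to -0.0455, and the large minus small medians to 0.0063 (LKO time), -0.0112 (ZT4) and -0.0253 (interaction), with 0 genes called at ZT4 and 13 at ZT16. With comprehensive transcripts, chosen after seeing the data, that interaction value was 0.0331, and 5 genes were called for LKO time. Among transcripts of at least 1000 nt the large minus small medians were -0.0096 (LKO time), 0.0098 (ZT4) and -0.0545 (interaction), and 0 genes were called for LKO time, at ZT4, at ZT16 and in the interaction, where fewer genes were tested. The sign of large minus small thus depended on the setting.

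Library weights called 7, 13, 3, 255 and 127 genes in the 5 comparisons, with 3 members at ZT16 and 2 in the interaction, and gave -0.0175 for large minus small in LKO time. A model of only the groups compared called 18 genes in WT time, 0 in LKO time and 132 at ZT16, with 1 member in the first and 1 in the last. No filter left 0, 0, 0 and 3 genes for LKO time, ZT4, ZT16 and the interaction. A limit of 2 FPKM gave 1, 2 and 23 genes for WT time, ZT4 and the interaction, where 1 member passed. Median-ratio scaling gave 2 genes at ZT16. The cause of these changes was not tested.

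Pairing by replicate number was not evident: residuals of same-numbered libraries correlated at -0.22 to 0.26 by title and -0.09 to 0.33 by column. With so few libraries this check cannot exclude shared donors or cultures. The replicate block called 0 members in each comparison, and 0, 0 and 6 genes for LKO time, ZT16 and the interaction. The block by column numbers called 3 genes each at ZT4 and ZT16.

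Leaving out each library in turn gave 6 to 109 called genes for the interaction, 0 to 6 for WT time and 0 to 59 for LKO time. Between donors it gave 0 to 16 genes at ZT4 and 0 to 27 at ZT16. The upper ends were without LKO ZT4 replicate 1. Members called were 0 to 2 in LKO time and the interaction and 0 to 1 at ZT4 and ZT16. Large minus small ran from -0.0302 to 0.0185, from 0.0113 to 0.0408, from -0.0731 to -0.0116 and from -0.0263 to 0.0601 in WT time, LKO time, ZT4 and the interaction. Without counts the depth of a single gene is unknown, and a pairwise difference of a member had a median SE of 0.08 log2.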
